A study of Rattus norvegicus with 6 samples.

Results

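Rn45s and Rn28s are 2 entries for the ribosomal RNA (rRNA) gene unit in the deposited gene table of the rat fibroblast cell line Rat-1. They were taken by name as 2 of the 17143 rows of the table, and they had been picked for their values on the different matrices, so those values are given here as a description with no test between matrices. Fibroblasts were seeded at 25000 cells per well and lysed 4 h later on 1 of 3 kinds of extracellular matrix (ECM): native ECM as the control (2 libraries), ECM degraded beforehand by matrix metalloproteinase 1 (MMP1, 2 libraries) or ECM degraded by matrix metalloproteinase 13 (MMP13, 2 libraries). Both enzymes are secreted collagenases. All groups share the cell line, the medium with fetal bovine serum and the time on the matrix. Each pair is labelled as duplicates with no word on separate cultures, so the spread within a pair may be technical.

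In each rRNA repeat, RNA polymerase I makes 1 long precursor, the 45S pre-rRNA, inside the nucleolus. Small nucleolar RNA-protein particles modify it, and nucleases and helicases cut it into the 18S RNA of the small ribosomal subunit and the 5.8S and 28S RNAs of the large subunit. The 5S RNA is made separately by RNA polymerase III. Mature rRNA is the most abundant RNA of a cell and carries no long poly(A) tail, so a library built from the 3′ ends of messenger RNA reads it only in small part. A share of such a library therefore does not measure the cell's rRNA, and more rRNA captured cannot be told apart from less messenger RNA. In the RefSeq table of the rat assembly GRCr8, the entry Rn18s lies wholly inside the span of Rn45s, while Rn28s and Rn5-8s lie outside it. The submitters used the build rn5, whose annotation was not used here. Whether the reads under Rn45s came from the precursor or from a mature rRNA was therefore not tested. Nor was it tested whether Rn45s and Rn28s share reads, which would bear on the ratio between them. The deposited values hold no row for Rn18s, so it could not be analysed. No RefSeq sequence table used here held an entry for either member.

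The table holds normalised reads, called units here, from which whole reads could be recovered. The libraries had 161817 to 362122 reads, and 1 read was worth 0.735 to 1.68 units. The columns summed to between 262321 and 271723 units, so units and shares of reads order the libraries almost alike. The 9 fibroblast marker genes examined took 2.93% to 3.27% of reads in every library, and Col1a1, Vim and Thy1 were read in all 6. Marker lists of 4 other cell types (tenocyte, leukocyte, endothelial and epithelial) each took at most 0.0270% of reads, and Epcam had no read.

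Rn45s was among the most abundant entries of the table, in place 4 by mean level (1746 units). On native matrix it stood at 927 and 768 units in replicates 1 and 2, on MMP1-degraded matrix at 1777 and 2529 units, and on MMP13-degraded matrix at 1844 and 2631 units. Both native libraries were low, and all 4 libraries on degraded matrix were high with no overlap. Group means were 848 ± 113 units on native, 2153 ± 532 on MMP1-degraded and 2238 ± 557 on MMP13-degraded matrix (SD, n = 2 each). The log2 fold on log2(value + 1) was 1.33 for MMP1 against native (SE 0.29, from the 4 libraries) and 1.38 for MMP13 against native (SE 0.29). In the narrowest pairing, the lowest MMP1 library lay 1.92-fold above the highest native library, and the lowest MMP13 library 1.99-fold above it. These comparisons share the 2 native libraries.

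As reads, Rn45s counted 763 and 1018 on native, 1217 and 2107 on MMP1-degraded, and 2507 and 1567 on MMP13-degraded matrix. Its share of all reads was 0.347% (exact binomial 95% interval 0.323% to 0.373%) and 0.293% (0.275% to 0.311%) on native matrix. On MMP1-degraded matrix it was 0.661% (0.625% to 0.699%) and 0.936% (0.897% to 0.977%). On MMP13-degraded matrix it was 0.692% (0.666% to 0.720%) and 0.968% (0.921% to 1.017%). These intervals cover counting error only. The rank of Rn45s within its library was 13 and 23 on native matrix and 3 or 4 in each of the other 4 libraries. The share in the deepest library, MMP13 replicate 1 (362122 reads), was 0.692%, and that in the native library of nearly the same depth, replicate 2 (347618 reads), was 0.293%. This sets 1 library against 1, and the part of depth in the Rn45s shares was not tested.

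**Figure D1:**
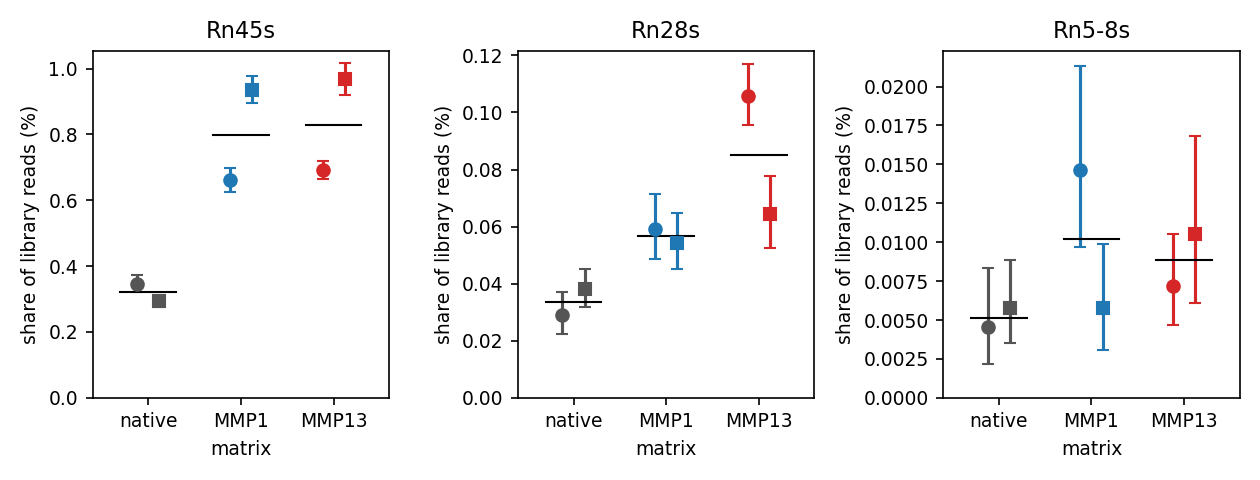
Share of library reads (%) of Rn45s, Rn28s and Rn5-8s by matrix. Circles are replicate 1 and squares replicate 2, bars are exact binomial 95% intervals of each library (counting error only), and black lines are group means. For Rn45s the native libraries sit at 0.347% and 0.293% and the other 4 between 0.661% and 0.968%.

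The degraded matrices were not separated from each other by Rn45s. The libraries of MMP13 and MMP1 overlapped, with 1 low and 1 high library in each group, and the log2 fold of MMP13 against MMP1 was 0.05 (SE 0.36). Leaving out a library turned its sign, over a range of -0.20 to 0.31.

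Rn28s, the entry for the large-subunit rRNA, had far fewer reads and a graded order. Its values were 77.8 and 99.6 units on native, 159 and 146 units on MMP1-degraded, and 282 and 175 units on MMP13-degraded matrix. The 3 groups did not overlap in this order, but the gap between MMP1 and MMP13 was narrow, with the lowest MMP13 library 1.10-fold above the highest MMP1 library. The share of all tested genes with this order was not counted. Rn28s was picked for these values, so nothing is read from the order. Group means were 88.7 ± 15.4, 153 ± 9.0 and 228 ± 75.7 units (SD, n = 2 each). The log2 fold was 0.79 (SE 0.19) for MMP1 and 1.32 (SE 0.39) for MMP13, each against native, and 0.54 (SE 0.35) for MMP13 against MMP1. With MMP13 replicate 1 left out, this last fold was 0.19, and with MMP13 replicate 2 left out it was 0.88, so the distance between the degraded matrices was no larger than the spread between replicates.

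The reads behind Rn28s numbered 64 and 132 on native, 109 and 122 on MMP1-degraded and 383 and 104 on MMP13-degraded matrix. As a share of all reads this was 0.0291% and 0.0380%, 0.0592% and 0.0542%, and 0.106% and 0.0643%, respectively. The exact binomial interval of native replicate 2, 0.0318% to 0.0450%, met that of MMP1 replicate 2, 0.0450% to 0.0647%. MMP13 replicate 1 stood above all others, at 0.0954% to 0.117%.

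Of the 2 members, both had all 4 libraries on degraded matrix above both native libraries, as did 8.91% of the 7284 genes tested. The members were named for these values, so nothing is read from that count or from the ranks of their folds given next. For scale, the 46 genes with a mean of at least 500 units had a median log2 fold of -0.04 on either degraded matrix against native, and Rn45s had the highest fold of these 46 on both. Among the 1021 genes between 50 and 500 units, the fold of Rn28s took place 22 on MMP1-degraded and place 2, behind the haem oxygenase gene Hmox1, on MMP13-degraded matrix.

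Rn5-8s, the entry for the 5.8S RNA that pairs with 28S RNA in the large subunit, was not among the rows picked and could be tested. It stood at 12.2 and 15.1 units on native, 39.4 and 15.6 units on MMP1-degraded and 19.1 and 28.5 units on MMP13-degraded matrix, from 10 to 27 reads per library. All 4 libraries on degraded matrix were above both native ones, as in 8.91% of the 7284 tested genes, but MMP1 replicate 2 only by a factor of 1.03. The log2 fold was 0.83 (limma SE 0.48, limma adjusted p = 0.68) on MMP1-degraded and 0.74 (limma SE 0.48, limma adjusted p = 0.75) on MMP13-degraded matrix, and neither passed. From its own libraries, as for Rn45s, the SE was 0.66 and 0.31. With so few reads, a difference of 2-fold in Rn5-8s may go uncalled. Together the 3 rRNA entries took 0.381% and 0.337% of reads on native, 0.735% and 0.996% on MMP1-degraded and 0.805% and 1.043% on MMP13-degraded matrix. Taking them out of the library totals moved every other gene by 0.0074 (log2) for MMP1 against native and 0.0082 for MMP13 against native.

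The replicates of Rn45s differed by more than counting error in every group. The share in replicate 2 was 0.844 times that in replicate 1 on native matrix (Fisher's exact test on reads, two-sided, adjusted p = 6.1e-04 over 6 tests), 1.42 times on MMP1-degraded (adjusted p = 3.1e-22, exact) and 1.40 times on MMP13-degraded matrix (adjusted p = 4.0e-24, exact). Each of these tests compares 2 libraries, not conditions, and takes reads as independent molecules. For Rn28s the replicates differed on MMP13-degraded matrix, where replicate 2 had 0.608 times the share of replicate 1 (adjusted p = 5.8e-06, exact). The test did not separate them on native (1.30 times, adjusted p = 0.11, exact) or MMP1-degraded matrix (0.915 times, adjusted p = 0.51, exact).

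This spread was large for an abundant transcript. Among the 46 genes with a mean of at least 500 units, the gap of Rn45s between replicates was the largest on MMP1-degraded (0.51, log2) and on MMP13-degraded matrix (0.51, log2), where the median gaps were 0.09 and 0.09. On native matrix its gap was 0.27, against a median of 0.14, and 9 of the 46 genes had a gap at least as large, Rn45s included. The gap of Rn28s was 0.35 on native, 0.12 on MMP1-degraded and 0.69 on MMP13-degraded matrix. Among 1021 genes between 50 and 500 units, 57 had a gap that large on MMP13-degraded matrix, Rn28s included.

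**Figure D2:**
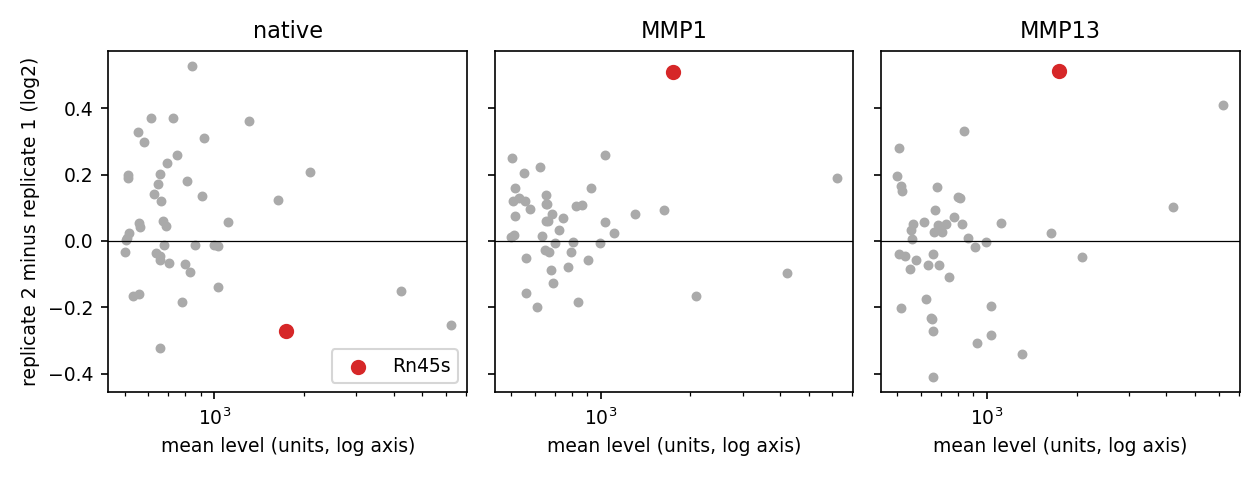
Difference between replicate 2 and replicate 1 (log2) against mean level (units, log axis) for the 46 genes with a mean of at least 500 units, in 1 panel per matrix. Red marks Rn45s, at -0.27 on native, 0.51 on MMP1-degraded and 0.51 on MMP13-degraded matrix, where it is the highest point of the last 2 panels.

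In each group the library with more Rn45s had the lower value of Rn28s, although the Rn28s replicates were separated by the test on MMP13-degraded matrix alone. Rn28s reads per 100 Rn45s reads were 8.39 (exact binomial 95% interval 6.39 to 10.8) and 13.0 (10.7 to 15.6) on native matrix. They were 8.96 (7.29 to 10.9) and 5.79 (4.78 to 6.95) on MMP1-degraded matrix, and 15.3 (13.7 to 17.0) and 6.64 (5.39 to 8.10) on MMP13-degraded matrix. Group means were 10.7 ± 3.2, 7.37 ± 2.24 and 11.0 ± 6.1 (SD, n = 2 each), and the replicate ranges of the groups overlapped. In a Fisher's exact test added after seeing these values, the proportion of Rn28s to Rn45s reads differed between replicates on native (adjusted p = 0.0060 over 3 tests), MMP1-degraded (adjusted p = 0.0023, exact) and MMP13-degraded matrix (adjusted p = 7.1e-14, exact). This test was prompted by the pattern it examines, and since it counts Rn45s reads, the replicate differences of Rn45s enter it. The highest ratios belonged to MMP13 replicate 1 and native replicate 2, which were the deepest libraries (362122 and 347618 reads). The part of depth in this was not tested.

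**Figure D3:**
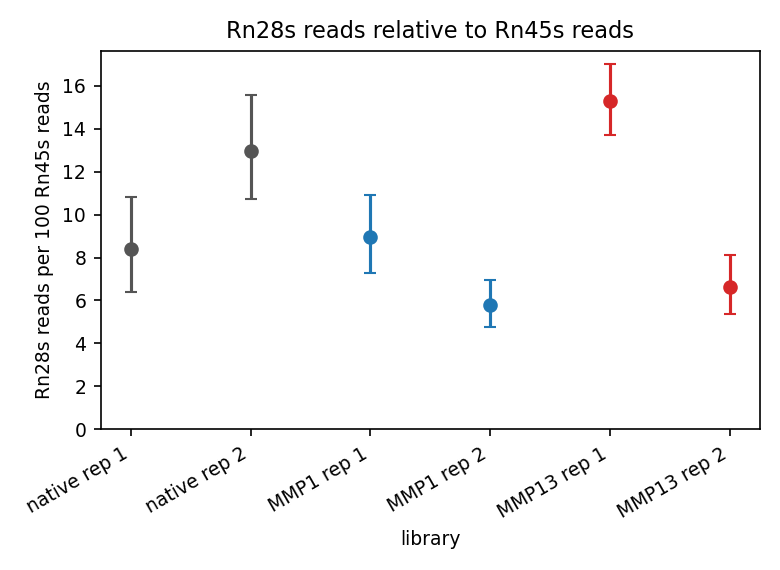
Rn28s reads per 100 Rn45s reads in each library, with exact binomial 95% intervals (counting error only). The ratio ran from 5.79 in MMP1 replicate 2 to 15.3 in MMP13 replicate 1, and the replicate ranges of the matrices overlapped.

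The genes that make rRNA were examined as 5 lists: RNA polymerase I and its factors, snoRNA-particle proteins, processing factors of the small and of the large subunit, and the RNA exosome with other turnover factors. Of 130 tested members, limma called 0 on MMP1-degraded and 0 on MMP13-degraded matrix against native, where 0.137% and 0.275% of all tested genes were called higher and 0.0137% and 0.137% lower. Members with a log2 fold above 0 numbered 82 and 71, against 3722 and 3682 of all 7284 tested genes. The 137 members in the table took 0.958% to 1.04% of reads on native, 1.08% to 1.13% on MMP1-degraded and 0.996% to 1.07% on MMP13-degraded matrix. These counts and shares were not tested. At an unadjusted limma p under 0.05 there were 7 and 11 members (5.38% and 8.46%), where 8.24% and 8.05% of all tested genes passed. For MMP13 against MMP1 that share of all tested genes was 5.22%. By edgeR 0 of 103 tested members passed in either comparison, and by DESeq2 0 of 137 on MMP1-degraded and 0 of 5 on MMP13-degraded matrix. Between MMP13 and MMP1, limma called 0 of the 130 (1, in the RNA polymerase I list, without MMP13 replicate 1), with 7 at an unadjusted p under 0.05 and 0 by edgeR and DESeq2, where 0.0412% of all tested genes were called higher and 0 lower. In simulated counts for MMP1 against native the test found 3 of 100 genes changed 2-fold and 38 of 100 changed 4-fold, so members may have changed without being called.

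RNA polymerase I genes had a median log2 fold of 0.14 on MMP1-degraded and 0.12 on MMP13-degraded matrix (18 tested), against 0.02 and 0.01 over all 7284 tested genes. Ubtf, the upstream binding factor of rRNA gene promoters, had a log2 fold of -0.01 and 0.68 (limma adjusted p = 0.997 and 0.74). Rrn3, which recruits the polymerase, had -0.02 and 0.24. The subunit genes Polr1a and Polr1b had 0.28 and 0.64, and -0.74 and 0.07. Polr2h, a subunit shared by the 3 nuclear polymerases, had 1.12 and 1.28 (limma adjusted p = 0.68 and 0.61). Polr1e had -1.84 on MMP13-degraded matrix (limma adjusted p = 0.51), and Taf1d 0.75 on MMP1-degraded matrix. Polr1e was low, at 8.51 and 8.30 units on native and 5.88 and 0 units on MMP13-degraded matrix. On native matrix Polr1a (6.08 and 0.755 units), Polr1b (7.29 and 6.79 units) and Polr2h (9.72 and 3.02 units) were low too.

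Among the snoRNA-particle proteins (12 tested, medians 0.01 and 0.06), the methyltransferase gene Fbl had log2 folds of -0.01 and -0.46 on MMP1-degraded and MMP13-degraded matrix. On MMP1-degraded matrix Nop56 had -1.86 and Gar1 0.73, and on MMP13-degraded matrix the pseudouridine synthase gene Dkc1 had 1.06 and Nop58 0.56. Nop56 was low, at 13.4 and 9.81 units on native and 4.38 and 1.20 units on MMP1-degraded matrix (limma adjusted p = 0.44). Small-subunit processing genes (40 tested) had medians of 0.24 and 0.20. There Pno1 had 2.34 on MMP1-degraded (limma adjusted p = 0.13) and 1.62 on MMP13-degraded matrix (limma adjusted p = 0.45), from 1.22 and 6.79 units on native to 27.7 and 14.4, and 10.3 and 13.4 units. The remaining names were Rrp7a (-0.88) on MMP1-degraded and Ltv1 (-1.04) on MMP13-degraded matrix.

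Large-subunit processing genes (44 tested) had medians of 0.29 on MMP1-degraded and 0.03 on MMP13-degraded matrix. Nucleolin, Ncl, an abundant nucleolar protein that binds pre-rRNA, stood at 82.7 and 95.1 units on native, 140 and 170 on MMP1-degraded and 141 and 106 on MMP13-degraded matrix. All 4 libraries on degraded matrix were above both native ones, as in 8.91% of the 7284 tested genes. The log2 folds of Ncl, 0.80 (limma SE 0.23, limma adjusted p = 0.13) and 0.46 (limma SE 0.23, limma adjusted p = 0.61), did not pass. Nucleophosmin, Npm1, had 0.27 and 0.22. Ftsj3 had -0.93 on MMP1-degraded, and Las1l and Rpf1 had 1.32 and 1.34 on MMP13-degraded matrix. Exosome and turnover genes (16 tested) had medians of -0.28 and -0.12. The helicase gene Skiv2l2 had -0.93 on MMP1-degraded and -0.73 on MMP13-degraded matrix, Zcchc7 had -0.45 on the first and Exosc7 1.56 on the second. Exosc7 was low, at 0 and 3.77 units on native and 5.88 and 5.04 units on MMP13-degraded matrix (limma adjusted p = 0.84).

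**Figure D4:**
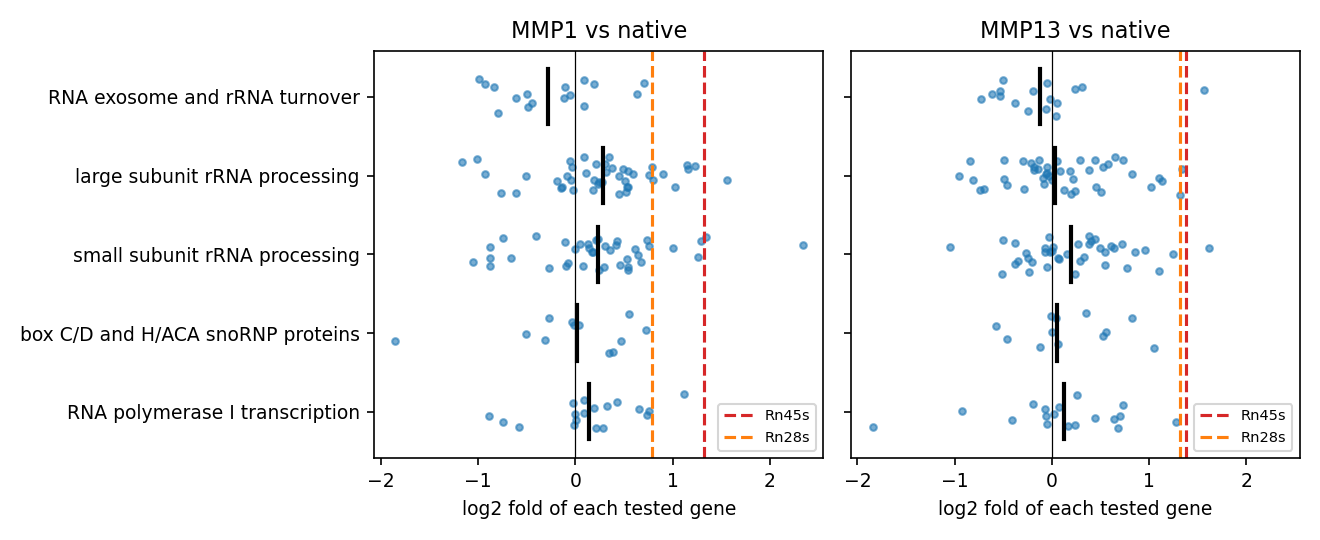
Log2 fold of each tested gene (dots) of 5 lists of rRNA production and turnover, for MMP1 (left) and MMP13 (right) against native; vertical black bars are list medians and dots are spread vertically at random. The medians lie between -0.28 and 0.29, and the dashed lines give Rn45s (1.33 and 1.38) and Rn28s (0.79 and 1.32).

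Regulators of rRNA synthesis (20 tested) held 0 calls by limma or edgeR (12 tested) in either comparison with native. Their medians were -0.18 and 0.16. DESeq2 called 0 of 24 on MMP1-degraded matrix and 0 of only 2 tested on MMP13-degraded matrix. At an unadjusted limma p under 0.05 there were 2 members each (10%), where 8.24% and 8.05% of all tested genes passed. The transcription factor gene Myc had log2 folds of 0.02 on MMP1-degraded and 0.73 on MMP13-degraded matrix. Rheb, the activator of the mTOR kinase, had -1.16 on MMP1-degraded matrix (limma adjusted p = 0.16), where the S6 kinase gene Rps6kb1 had 1.79. Rps6kb1 was low, at 0 and 10.6 units on native and 7.30 and 15.6 units on MMP1-degraded matrix (limma adjusted p = 0.60). On MMP13-degraded matrix Cebpb had 0.83 and Eif4ebp1 -0.58. The list for 5S RNA and RNA polymerase III (16 tested, medians 0.00 and -0.21) also held 0 calls by limma or edgeR (11 tested). Its members Gtf3c2 (0.97) and Gtf3c3 (1.33) had the smallest p on MMP1-degraded matrix, and Polr3d (1.58) and Gtf3c6 (-0.76) on MMP13-degraded matrix. At an unadjusted limma p under 0.05 the list had 2 and 1 members (12.5% and 6.25%), where 8.24% and 8.05% of all tested genes passed. DESeq2 called 0 of 20 on MMP1-degraded matrix and tested 0 members on MMP13-degraded matrix.

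Ribosomal proteins are assembled with rRNA in the nucleolus, and their genes held calls. Of 79 tested cytosolic ribosomal protein genes, limma called 3 higher and 0 lower on MMP1-degraded matrix, against 0.137% of all genes called higher, and 4 higher and 0 lower on MMP13-degraded matrix, against 0.275%. The list's median log2 fold was 0.15 and 0.16, with 58 and 53 members above 0. These calls were known from earlier results and are no independent evidence. Rpl7 rose from 159 and 170 units on native to 244 and 367 on MMP1-degraded (log2 fold 0.86, limma SE 0.17) and 288 and 396 on MMP13-degraded matrix (1.03, limma SE 0.17). This limma SE does not reflect the gene's own replicates and is not comparable with the SE given for Rn45s. Rpl41 rose by a log2 fold of 0.57 and 0.51, Rpl23a by 1.09 on MMP1-degraded, and Rpl35 by 0.88 and Rpl37a by 0.60 (limma adjusted p = 0.0499) on MMP13-degraded matrix. Rpl37a carried the same reads as its pseudogene entry. With TMM factors, a setting chosen after seeing the data, limma called 0 and 1 of the list, DESeq2 called 0 and 6, and limma without its trend 0 and 0. Without native replicate 1 limma called 0 and 1, without MMP1 replicate 2 it called 0 on MMP1-degraded matrix, and without either MMP13 library 1 on MMP13-degraded matrix.

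Mitochondrial ribosomal protein genes, which serve a separate ribosome with rRNA of its own, held 0 calls among 63 tested by limma (1 on MMP1-degraded matrix without native replicate 2), and 0 by edgeR and DESeq2, with medians of -0.06 and 0.10. Unadjusted, 4 and 5 passed by limma (6.35% and 7.94%), against 8.24% and 8.05% of all tested genes. DESeq2 tested 69 on MMP1-degraded but only 2 on MMP13-degraded matrix, and edgeR tested 49. Mrps9 (2.98) and Mrpl13 (1.25) had the smallest p on MMP1-degraded matrix, and Mrps25 (1.63) and Mrpl23 (1.35) on MMP13-degraded matrix. Mrps9 was low, at 0 and 4.53 units on native and 23.4 and 13.2 units on MMP1-degraded matrix (limma adjusted p = 0.12). Host genes of small nucleolar RNAs (7 tested) had medians of 0.15 and 0.21 and 0 calls by limma or edgeR (6 tested). DESeq2 called 0 of 7 on MMP1-degraded matrix and 0 of 3 tested on MMP13-degraded matrix. Of these host genes 1 and 0 passed unadjusted by limma (14.3% and 0%), against the same shares of all tested genes. Snhg11 had 1.99 and 1.34, from only 1.22 and 3.77 units on native. Snhg4 had 0.86 on MMP1-degraded and Rpl13a 0.35 on MMP13-degraded matrix. Targets of p53, a pathway known to respond when ribosome assembly is disturbed, held 0 calls by limma (16 tested) or edgeR (13 tested). DESeq2 called 0 of 19 on MMP1-degraded matrix and 0 of 6 tested on MMP13-degraded matrix. Unadjusted, 4 and 3 passed by limma (25% and 18.8%), against 8.24% and 8.05% of all tested genes. By limma 1 was called on MMP1-degraded matrix without MMP1 replicate 1, and 1 on MMP13-degraded matrix with a filter of 20 units, without MMP13 replicate 1 and without native replicate 2. Zmat3 had -1.62 and Bax 1.37 on MMP1-degraded matrix, and on MMP13-degraded matrix Ddit4 had 1.39 (limma adjusted p = 0.058) and Bax 0.99.

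Other RNAs without a poly(A) tail were scarce in these libraries. The 24 replication-dependent histone genes, whose messenger RNAs end in a stem-loop, took 0.0114% to 0.0138% of reads on native, 0.0111% to 0.0293% on MMP1-degraded and 0.0191% to 0.0272% on MMP13-degraded matrix. Only 6 were tested, with medians of 0.07 and 0.54 and 0 calls by limma or edgeR (1 tested). DESeq2 called 0 of 22 on MMP1-degraded matrix and tested 0 on MMP13-degraded matrix. Unadjusted, 1 passed by limma in each comparison (16.7%, against 8.24% and 8.05% of all tested genes). This was Hist1h2bo (2.87 and 2.58), with 0 units in both native libraries and 1.20 to 23.4 units on degraded matrix. Its neighbour by p, Hist1h2ail, had 1.12 and 1.97. The RNase MRP RNA gene Rmrp had 3 reads in all and the telomerase RNA gene Terc 11, of which 8 lay in MMP1 replicate 1, and neither reached 5 units on average.

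Markers of other cell types were at low levels that were not even across the groups. Tenocyte markers (7 in the table) took 0.0232% to 0.0270% of reads on native, 0.0182% to 0.0206% on MMP1-degraded and 0.0117% to 0.0218% on MMP13-degraded matrix, lower where Rn45s was higher, with Kera and Chad at 0 reads in every library and most reads from Scx. Leukocyte markers (5 in the table) took 0.0050% to 0.0060%, 0.0093% to 0.0098% and 0.0056% to 0.0077%, most of them from Cd14, and Ptprc had 8 reads in all. Their part in the rRNA values was not tested.

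The genes most like each entry across the 6 libraries were taken by the smallest root mean square difference of log2(value + 1), each gene centred on its own mean, among 1047 genes with a mean of at least 50 units. For Rn45s these were Rpl7 (0.23), the small heat shock protein gene Hspb8 (0.26), the stress-induced early gene Ier3 (0.35), the small-subunit protein gene Rps14 (0.35), the stress-induced nuclear protein gene Nupr1 (0.36) and the phosphatase gene Ppm1g (0.38). For Rn28s they were the initiation factor gene Eif3d (0.22), the ribosomal protein gene Rps24 (0.22), Fam65b (0.23), Ppm1g (0.23), the ferritin light chain gene Ftl1 (0.25) and Rpl35 (0.26). Ppm1g stood on both lists. The entries themselves differed from each other by 0.49, so that 63 genes were closer to Rn45s than Rn28s was, and 191 closer to Rn28s than Rn45s was. Rpl7 shared with Rn45s the lower first and higher second replicate on both degraded matrices, while on native matrix its second replicate was the higher one. These likenesses describe 6 libraries and were not tested.

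**Figure D5:**
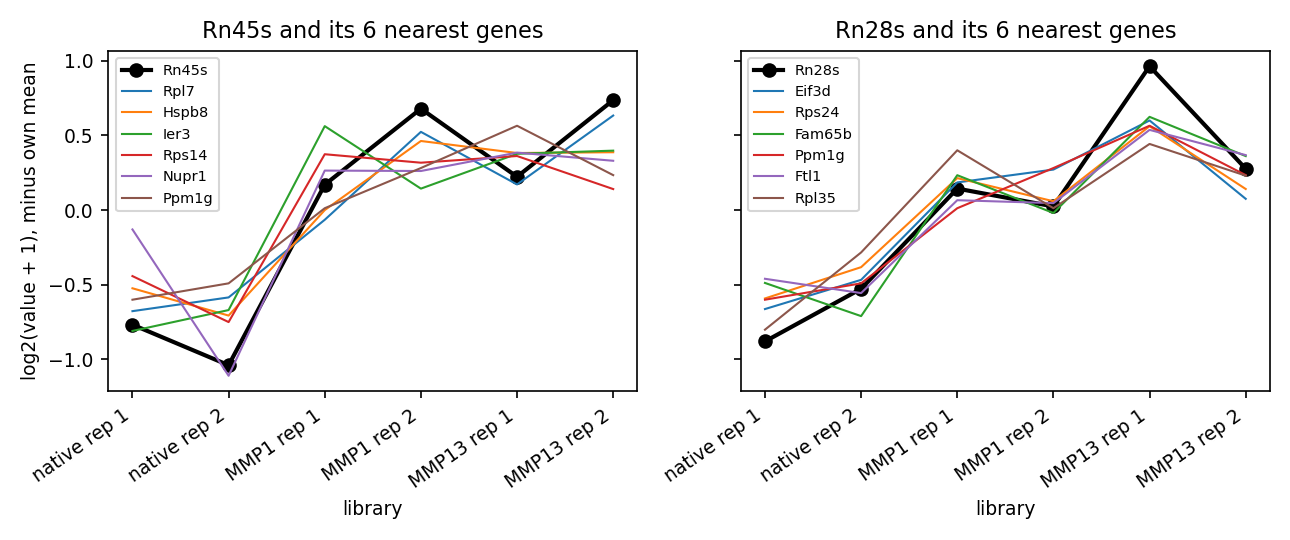
Log2(value + 1) of Rn45s (left) and Rn28s (right) minus its own mean in each library, in black, with the 6 nearest genes in colour. Rn45s is lowest in native replicate 2 and peaks in MMP1 replicate 2 and MMP13 replicate 2, while Rn28s peaks in MMP13 replicate 1.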

How the data were processed

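Per the labels' protocols, total RNA was taken from cells lysed on the matrix and made into 3′ end messenger RNA libraries carrying a molecular identifier (UMI) of 8 nucleotides. The submitters' processing notes name TopHat, bcl2fastq, DESeq and the build rn5. Counter, annotation, strand use and UMI collapsing: not given in the sources used here. As deposited, the table holds a normalised signal: 100% of values above 0 in each library were whole multiples of its smallest value (tolerance 0.01 reads), so reads were recovered by division. A count of 0 allows up to 3 reads.

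The members and lists were chosen with earlier results of these data known. Shares have exact 95% intervals (SciPy 1.17.1, Python 3.11.15). All genes with at least 5 units in 2 libraries (7284) were fitted with limma 3.58.1 in R 4.3.3 on log2(value + 1), with an intensity trend, 3 groups and no replicate block. Calls had a Benjamini-Hochberg adjusted p under 0.05. The prior degrees of freedom were infinite, so a gene's error is the trend's value for its level, whatever its own replicates do. An SE marked limma is of this kind, while those of Rn45s and Rn28s are from their own libraries. Alternatives on recovered reads used edgeR 4.0.16 and DESeq2 1.42.0. The limma script was tested on simulated counts (7059 genes). Genes named were the members, called list members or otherwise the 2 with the smallest p per list, Ncl, Npm1, Fbl, Ubtf, Polr1a, Polr1b, Rrn3 and Myc, and the 6 nearest patterns. Hmox1, Mip, Rps16, Rps3, Eif5a, Rps15 and single marker genes were named after their values were seen.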

Additional observations from a re-analysis of the deposited data

How the results depend on the processing

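With 2 libraries per group, leaving 1 out moves a fold by the distance of a library from its group mean, so the ranges below restate the replicate gaps. For MMP1 against native the log2 folds ran from 1.07 to 1.58 (Rn45s) and from 0.61 to 0.96 (Rn28s) with a library left out, and for MMP13 against native from 1.13 to 1.64 and from 0.98 to 1.67. For MMP13 against MMP1 they ran from -0.20 to 0.31 and from 0.19 to 0.88. Other pseudocounts and scalings gave 1.27 to 1.33 and 1.36 to 1.38 for Rn45s and 0.73 to 0.79 and 1.29 to 1.33 for Rn28s against native. Rn28s reads per 100 Rn45s reads ran with a library left out from 8.39 to 13.0 (native), 5.79 to 8.96 (MMP1) and 6.64 to 15.3 (MMP13).

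The count of all genes called depended on the setting; the cause was not tested. Higher on MMP1-degraded matrix were 10, but 1 by DESeq2, 0 without the limma trend and 3 with TMM factors (chosen after seeing the data), and 3 to 15 with a library left out. Lower were 1, but 0 with no filter, DESeq2, no trend or TMM factors, 2 with a filter of 20 units, and 0 to 4 with a library left out. Higher on MMP13-degraded matrix were 20, but 12 with no filter, 0 without trend, 7 with TMM factors, and 5 to 30 with a library left out. Lower were 10, but 1 with no filter or TMM factors, 5 with a pseudocount of 5 or by DESeq2, 6 by edgeR, 0 without trend, and 0 to 24 with a library left out. For MMP13 against MMP1 3 were higher, 1 by DESeq2, 0 without trend, and 1 to 4 with a library left out, and 0 were lower (380 genes of either sign at an unadjusted limma p under 0.05, 0 lower by edgeR and DESeq2), with 0 to 23 with a library left out.

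With the replicate number as a block, the folds of the members were 1.33 and 1.38 for Rn45s and 0.79 and 1.32 for Rn28s against native, identical by construction, since each group holds both numbers, and 5 genes were lower on MMP13-degraded matrix against 10. Whether the numbers pair the libraries is not given. The deviations of same-numbered libraries correlated across 7284 genes (not independent replicates) with r of 0.0059, -0.072 and -0.045. Counting error enters these deviations, so r near 0 cannot decide on pairing. The calls of cytosolic ribosomal protein genes against native stayed within 1.5 times in 10 of 15 alternatives on either degraded matrix. Nothing is read from lists that held 0 calls. Depth limits Rn5-8s, at 10 to 27 reads per library.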

Other observations

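Mip, the lens aquaporin gene and the entry with the highest mean level in these fibroblast libraries (6230 units), differed between replicates in the same direction as Rn45s on each matrix. Its values were 5819 and 4880 units on native, 6288 and 7175 on MMP1-degraded and 5674 and 7543 on MMP13-degraded matrix. The gap of replicate 2 from replicate 1 was -0.25, 0.19 and 0.41 (log2) for Mip and -0.27, 0.51 and 0.51 for Rn45s. Rps3, Eif5a and Rps15, at a mean of at least 500 units too, had the same directions by smaller gaps. The shared direction is therefore not particular to Mip. Of the 46 genes with a mean of at least 500 units, Rps16 (0.53), Rn45s (0.51) and Mip (0.41) had the largest gap on any matrix. The origin of the Mip reads was not tested.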
